A study of Homo sapiens with 7 samples.

Results

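The genes MAOA, MAOB, ADH1B, ALDH1A1, ALDH1A3, EPHX1, AKR1C1 and AKR1C3 encode enzymes that act on amines, alcohols, aldehydes, epoxides and ketones, and their levels were read on 7 arrays of human dermal fibroblasts. They are 8 of the 19775 genes that have a probe set of their own on the array. The set was chosen by the measured levels and changes of these genes on the same 7 arrays, so levels, changes and calls of the 8 genes are given as a description and support nothing beyond themselves. MAOB and ALDH1A1 were below a signal of 100 on every array and were flagged as dim, which left 6 of the 8 among the 12726 genes tested.

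The cells were primary dermal fibroblasts of 1 healthy donor, collected at passage 10 and hybridised to Affymetrix HG-U133 Plus 2.0 arrays. There were 2 control arrays of normal fibroblasts, and 1 array each of fibroblasts labelled as overexpressing progerin, progerin with FTI, prelamin A, prelamin A with FTI, and prelamin A with ZMPSTE24. Progerin is the truncated, permanently farnesylated lamin A of progeria. Prelamin A is the farnesylated precursor of lamin A, and ZMPSTE24 is the protease that removes its farnesylated end. FTI is the farnesyltransferase inhibitor L-744832, given at 10 nM for 48 h, with its solvent DMSO named for cells without it. In the study's methods progerin and prelamin A were driven by a CMV promoter from a lentivirus, and whether the control cells on the arrays carried a vector is not given in the labels. If they did not, transduction and the lamin cannot be told apart in the comparisons with control. The array of prelamin A with FTI was placed by its treatment label, since its title leaves out prelamin A. Nothing says whether the 2 controls came from separate cultures, so their spread may be technical.

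Monoamine oxidases A and B sit on the outer mitochondrial membrane and deaminate serotonin, dopamine and related amines to aldehydes, releasing hydrogen peroxide. Alcohol dehydrogenases turn alcohols and retinol into aldehydes, and the ALDH1A enzymes carry retinaldehyde on to retinoic acid, the ligand of the retinoic acid receptors. Microsomal epoxide hydrolase adds water to reactive epoxides, and the AKR1C enzymes reduce ketones and aldehydes, among them steroids, retinaldehyde and prostaglandins. Dermal fibroblasts are known to use several of these enzymes in steroid, retinoid and xenobiotic metabolism.

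The promoter windows of 5 genes are shown because these genes give the largest changes, pairs of paralogues on the same chromosome, or both. MAOA and MAOB are neighbours on the X chromosome, and MAOA alone of the pair reached a signal of 100. ADH1B had the widest range between lamin conditions. AKR1C1 and AKR1C3 both lie on chromosome 10 and are of closely related sequence. Each window runs from 250 bases before to 50 after a RefSeq transcription start in GRCh38.p14, 5′ to 3′ on the strand of the gene. Capitals mark the motifs found by letter search on both strands, which were the GC box GGGCGG, the TATA box TATAAA, the antioxidant response element core TGACNNNGC and the forkhead core GTAAACA.
MAOA, chrX:43656049-43656348, plus strand: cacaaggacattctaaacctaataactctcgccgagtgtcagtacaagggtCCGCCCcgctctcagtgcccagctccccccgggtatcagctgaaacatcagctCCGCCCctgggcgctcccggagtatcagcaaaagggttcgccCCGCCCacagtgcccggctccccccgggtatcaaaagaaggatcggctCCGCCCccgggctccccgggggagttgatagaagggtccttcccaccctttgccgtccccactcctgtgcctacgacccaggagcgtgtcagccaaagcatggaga
MAOB, chrX:43882401-43882700, minus strand: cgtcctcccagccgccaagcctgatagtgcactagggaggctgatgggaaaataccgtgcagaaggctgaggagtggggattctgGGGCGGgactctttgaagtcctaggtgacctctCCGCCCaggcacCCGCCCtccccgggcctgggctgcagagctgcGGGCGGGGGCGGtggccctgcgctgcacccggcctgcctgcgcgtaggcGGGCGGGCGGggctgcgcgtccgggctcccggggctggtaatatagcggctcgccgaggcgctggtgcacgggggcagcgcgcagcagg
ADH1B, chr4:99321352-99321651, minus strand: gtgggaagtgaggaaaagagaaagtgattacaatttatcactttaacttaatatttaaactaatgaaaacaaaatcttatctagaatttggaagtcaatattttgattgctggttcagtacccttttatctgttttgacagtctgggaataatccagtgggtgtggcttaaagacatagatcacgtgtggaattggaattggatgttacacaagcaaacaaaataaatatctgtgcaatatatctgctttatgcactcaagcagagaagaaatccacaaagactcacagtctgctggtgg
AKR1C1, chr10:4963165-4963464, plus strand: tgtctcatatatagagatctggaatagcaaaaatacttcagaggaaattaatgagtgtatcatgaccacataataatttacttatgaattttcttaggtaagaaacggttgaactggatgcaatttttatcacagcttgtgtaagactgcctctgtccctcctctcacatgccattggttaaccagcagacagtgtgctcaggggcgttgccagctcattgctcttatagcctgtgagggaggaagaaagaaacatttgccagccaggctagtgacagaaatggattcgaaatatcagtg
AKR1C3, chr10:5048531-5048830, plus strand: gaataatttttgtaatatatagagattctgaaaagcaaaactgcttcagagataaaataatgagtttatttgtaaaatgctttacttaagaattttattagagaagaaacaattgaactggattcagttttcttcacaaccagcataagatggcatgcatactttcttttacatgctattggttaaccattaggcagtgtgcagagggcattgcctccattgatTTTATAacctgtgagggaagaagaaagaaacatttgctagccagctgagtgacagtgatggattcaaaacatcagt
The MAOA window held 4 GC boxes and the MAOB window 7, some of which overlap or abut in MAOB. The ALDH1A3 window held 6, and the 3 windows of EPHX1 held 2, 0 and 3. The ADH1B, ALDH1A1, AKR1C1 and second AKR1C3 windows held none of the 4 motifs. The first AKR1C3 window held 1 match to the TATA box, on the strand opposite to that of the gene. The only antioxidant response element core was in the second EPHX1 window, and no window of the 8 genes held a forkhead core. Of all 35116 promoter windows, 45% held a GC box, 13.3% the antioxidant core, 11.5% a TATA box and 3.42% the forkhead core. The windows ranged in GC content from 33.7% in AKR1C3 and 35% in ADH1B to 63% in MAOA, 72% in MAOB and 81.7% in ALDH1A3, around a median of 58.7% over all windows. The AKR1C1 window was identical to the first AKR1C3 window at 227 of 291 aligned bases (78%), and to the second at 226 of 283 (79.9%). A motif match is a description of these letters and not of a bound site.

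The RNA carried the markers of fibroblasts on every array. All 9 fibroblast markers, among them COL1A1, COL1A2, DCN and VIM, had signals of at least 100 throughout. The 3 melanocyte markers measured, KRT5, KRT14 and DSG3 of keratinocytes, 3 of 4 endothelial markers and PTPRC and LAPTM5 of leukocytes stayed below 100. The keratinocyte marker KRT10 read 10671 and 7555 in the controls and 4980 to 6516 on the transduced arrays, the endothelial marker PECAM1 read 88.0 to 156, and the leukocyte marker CD53 reached 111. The leukocyte marker CD14 had signals of 87.2 and 55.3 in the controls and 198 to 575 on the transduced arrays, with the list of 4 summing to 97 and 231 in the controls and to 368 to 760 on the transduced arrays. Its part in the higher signals described below was not tested. Median signals were 64.9 to 77.0, and the 3′ to 5′ ratio of the actin probe sets was 1.06 to 1.26 except for prelamin A (1.62) and prelamin A with ZMPSTE24 (1.50). The brightest LMNA probe set, 203411_s_at, read 9300 and 14029 in the controls, 16289 and 15240 on the progerin arrays, and 8498 to 9814 on the 3 prelamin A arrays, and 212089_at read 2035 and 2263 in the controls and 1309 to 1657 on those 3, so neither was higher under the prelamin A label. The LMNA probe sets 1554600_s_at and 212086_x_at were also lower on the 3 prelamin A arrays than in either control. Probe set 214213_x_at went the other way in part. It read 285 and 313 in the controls, 387 and 389 with prelamin A without and with FTI, and 193 with ZMPSTE24. The dim 244225_x_at read 24.6 and 47.1 in the controls, then 52.4, 61.7 and 38.2 on those arrays. The single ZMPSTE24 probe set read 5779 where ZMPSTE24 was added and 4841 to 6120 on the other arrays. Whether these probe sets lie in the introduced sequences is not known here. The 2 controls were over 2-fold apart for 1181 genes (9.28%).

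Signals are MAS 5.0 values on a linear scale, and changes are differences of log2(signal + 16) with the standard error (SE) and 95% interval of a limma fit over 6 conditions, in which the 2 controls give the only replicate spread. The samples were bulk RNA, so a change of RNA per cell and a change in the mix of cells cannot be told apart. A gene was called at a change over 2-fold with an unadjusted p under 0.05. No gene of the 12726 had an adjusted p under 0.05 in any of the 5 main comparisons, and the smallest adjusted p of all genes, which MAOA shared with others, was 0.0968 for prelamin A against control and 0.241 for progerin against control by limma with Benjamini-Hochberg adjustment.

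**Figure D1:**
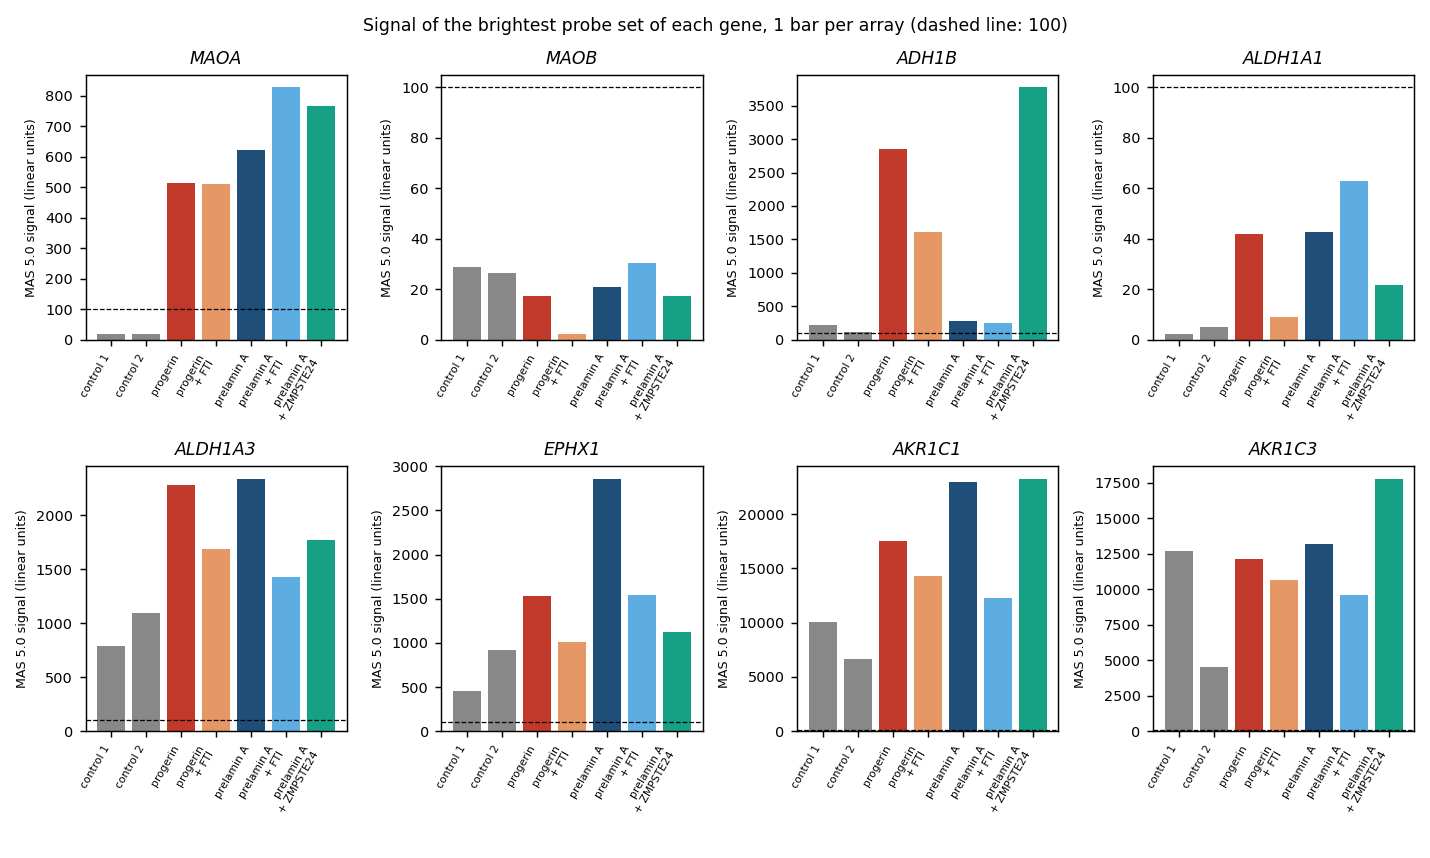
MAS 5.0 signal on a linear axis for the brightest probe set of each of the 8 genes, 1 bar per array in the order control 1, control 2, progerin, progerin with FTI, prelamin A, prelamin A with FTI, and prelamin A with ZMPSTE24, with a dashed line at a signal of 100 and a separate axis for each gene. MAOA rises from 18.1 and 18.4 in the controls to between 509 and 827 on all 5 transduced arrays, ADH1B is high on 3 of the 5, and MAOB and ALDH1A1 stay below the line.

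MAOA was below the signal minimum in both controls and far above them on all 5 transduced arrays. MAOA encodes monoamine oxidase A, the form that prefers serotonin and noradrenaline. Its brightest probe set, 212741_at, read 18.1 and 18.4 in the controls, 512 with progerin, 509 with progerin and FTI, 621 with prelamin A, 827 with prelamin A and FTI, and 765 with prelamin A and ZMPSTE24. No transduced array overlapped a control, and the lowest of the 5 stood 3.93 on the log2 scale above the higher control. Set in order, neighbouring transduced arrays were no more than 0.29 apart. That was less than the SE of a difference between 2 single arrays for this gene (0.37), so neighbours in that order did not differ beyond their error. The ends of the order were further apart than that SE, at 9.04 for progerin with FTI and 9.72 for prelamin A with FTI.

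The MAOA change was 3.95 (SE 0.32, interval 3.10 to 4.80) for progerin and 4.22 (SE 0.32, interval 3.37 to 5.07) for prelamin A. As a ratio of signals this was 28.1 and 34.0 times the mean of the 2 controls. Because the controls were below 100, the size depends on the constant added before the log: with 1 and 64 in place of 16 the progerin change was 4.74 and 2.81. FTI changed MAOA by -0.01 (interval -0.99 to 0.97) in progerin cells and by 0.40 (interval -0.58 to 1.39) in prelamin A cells, and ZMPSTE24 by 0.29 (interval -0.69 to 1.27), and none of the 3 was called. With each treatment MAOA remained called against control, at 3.94, 4.62 and 4.51 in that order.

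The other MAOA probe sets gave the same separation. Probe set 204388_s_at read 2.43 and 8.36 in the controls and 164 to 378 on the transduced arrays, and 204389_at read 19.2 and 13.9 in the controls and 90.7, 145, 189, 276 and 271 on the transduced arrays in the order above. The second of these was lowest with progerin alone, where its change of 1.72 was less than the 3.95 of the brightest probe set.

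MAOB, the form of the enzyme that prefers phenylethylamine and is known from glia and platelets, stayed dim. Its 3 probe sets had signals of 1.06 to 30.4 over all arrays. The brightest, 1561010_a_at, read 28.8 and 26.5 in the controls, 17.1, 2.37, 21.0 and 17.4 with progerin, progerin and FTI, prelamin A, and prelamin A and ZMPSTE24, and 30.4 with prelamin A and FTI. The values of the groups overlap, all of them are under the flag of 100, and MAOB was not tested.

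ADH1B was high on 3 of the 5 transduced arrays and near the controls on the other two. It encodes the beta subunit of class I alcohol dehydrogenase, which oxidises ethanol and also retinol, and it is known as an abundant transcript of liver and fat. Probe set 209612_s_at read 213 and 122 in the controls, 2857 with progerin, 1613 with progerin and FTI, 276 with prelamin A, 244 with prelamin A and FTI, and 3777 with prelamin A and ZMPSTE24. The prelamin A arrays without ZMPSTE24 lay close above the higher control, and the other 3 transduced arrays were at least 7.57 times as bright as either control.

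The ADH1B change was 4.01 (SE 0.44, interval 2.85 to 5.18) for progerin against control, and 0.71 (SE 0.44, interval -0.45 to 1.88) for prelamin A against control, or 1.08 and 0.35 without control 1 and without control 2. The direct difference, prelamin A minus progerin, was -3.30 (SE 0.50, interval -4.64 to -1.96), and it ranged from -3.37 to -3.10 over the settings tried. With ZMPSTE24 added to prelamin A cells ADH1B was 3.70 higher (SE 0.50, interval 2.36 to 5.04), a signal 13.7 times that of prelamin A alone. With FTI it was lower by 0.82 in progerin cells (change -0.82, interval -2.16 to 0.52), leaving 56.5% of the signal, and changed by -0.17 in prelamin A cells (interval -1.51 to 1.18), and neither was called. Each of these rests on 1 array a condition, with no replicate of the progerin, prelamin A or ZMPSTE24 array.

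In the order of the log2 levels, both prelamin A arrays without ZMPSTE24 were within 0.35 of the higher control, less than the 0.73 between the 2 controls. The gap from prelamin A to progerin with FTI was 2.48, and from there to progerin 0.82. The progerin and ZMPSTE24 arrays, 0.40 apart, did not differ beyond the control gap.

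The other ADH1B probe sets that reached 100 were also highest with prelamin A and ZMPSTE24, then progerin, then progerin with FTI. They differed for the prelamin A arrays without ZMPSTE24, where the array with FTI was the brighter one. Probe set 209613_s_at read 109 and 77.5 in the controls, 2494, 1552, 200, 257 and 2706 on the transduced arrays in the order used above. Probe set 209614_at read 53.2 and 6.10 in the controls, then 378, 152, 32.6, 36.7 and 476, so that both prelamin A arrays lay between the 2 controls there. The fourth, 243544_at, was below 12.0 on every array. Probe sets named _s_at can match several transcripts, and class I alcohol dehydrogenases are close in sequence. The probe sets of ADH1A and ADH1C read 3.3 to 34.0 on all arrays. ADH1C read 31.6, 33.4 and 27.6 with progerin, progerin with FTI, and prelamin A with ZMPSTE24, and 4.8 to 18.4 elsewhere. ADH1A read 26.9, 34.0 and 23.9 on those 3 arrays and 3.3 to 19.1 elsewhere. Matching of these transcripts by the ADH1B probe sets was not tested.

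**Figure D2:**
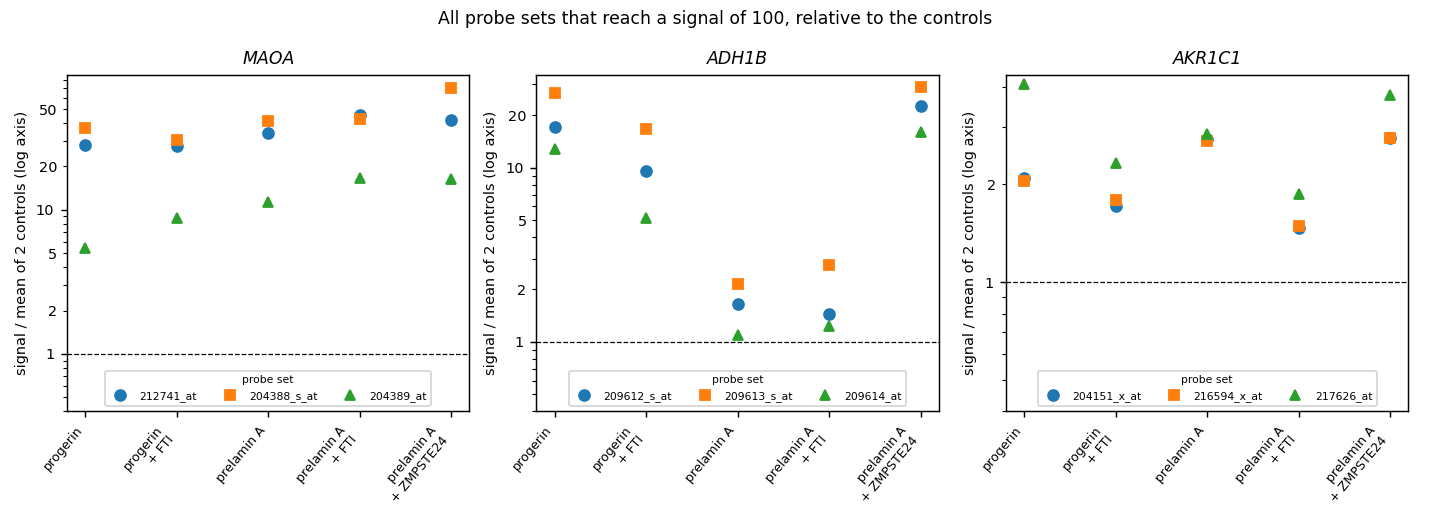
Signal of each probe set that reached 100 for MAOA, ADH1B and AKR1C1 on the 5 transduced arrays, divided by the mean of its 2 controls, on a log axis with a dashed line at 1. The 3 MAOA probe sets lie between 5.47 and 70.1 times control, the 3 ADH1B probe sets separate the prelamin A and prelamin A with FTI arrays (1.10 to 2.76) from the other 3 (5.14 to 29.0), and the 3 AKR1C1 probe sets lie between 1.46 and 4.06.

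Markers of fat cells were read beside ADH1B because that gene is abundant in fat. ADIPOQ and PLIN1, which define adipocytes, were below 35.4 on every array, and CIDEC read 102 to 159. LEP, which encodes leptin, read 1099 and 85.0 in the controls, 1497 with progerin, 1572 with progerin and FTI, 202 with prelamin A, 582 with prelamin A and FTI, and 5266 with prelamin A and ZMPSTE24. The 4 markers summed to 266 and 1238 in the controls and to 375 to 5403 on the transduced arrays, nearly all of the range being LEP. LEP was highest on the array where ADH1B was highest, and lower on both prelamin A arrays without ZMPSTE24 than on the other 3 transduced arrays, as ADH1B was. Its part in the ADH1B result was not tested.

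ALDH1A3, a retinaldehyde dehydrogenase, was higher on every transduced array than in either control, by a smaller margin. Probe set 203180_at read 785 and 1095 in the controls, 2280 with progerin, 1685 with progerin and FTI, 2340 with prelamin A, 1425 with prelamin A and FTI, and 1768 with prelamin A and ZMPSTE24. The lamin arrays without treatment were the highest, with the 3 treated arrays between them and the controls. No neighbouring pair in this order was further apart than the 2 controls (0.47 on the log2 scale). Arrays that were not neighbours could be, such as prelamin A at 11.20 and prelamin A with FTI at 10.49.

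The ALDH1A3 change was 1.28 (SE 0.37, interval 0.29 to 2.28) for progerin and 1.32 (SE 0.37, interval 0.33 to 2.31) for prelamin A, and both were called. FTI changed it by -0.43 (interval -1.58 to 0.71) in progerin cells and -0.71 (interval -1.85 to 0.44) in prelamin A cells, and ZMPSTE24 by -0.40 (interval -1.55 to 0.74), with no call. Its second probe set, 1558649_at, read 4.82 to 61.2 and did not separate the groups.

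ALDH1A1, the paralogue that also makes retinoic acid, was dim throughout, with a single probe set. It read 2.15 and 5.19 in the controls and 41.8, 9.20, 42.7, 62.8 and 21.8 on the transduced arrays in the order above. All 5 were above both controls, but at signals that the rule flags, and the gene was not tested. Without the filter on signal its changes would be 1.56 for progerin and 1.58 for prelamin A against control (SE 0.35 each), and -1.20 (SE 0.41) for FTI in progerin cells.

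EPHX1 stood highest with prelamin A. It encodes microsomal epoxide hydrolase, an enzyme of the endoplasmic reticulum that detoxifies epoxides made by cytochromes P450. Its only probe set read 457 and 920 in the controls, 1535 with progerin, 1015 with progerin and FTI, 2860 with prelamin A, 1547 with prelamin A and FTI, and 1121 with prelamin A and ZMPSTE24. All 5 transduced arrays were above both controls, though progerin with FTI exceeded the higher control by a factor of only 1.10.

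The EPHX1 change was 2.11 (SE 0.51, interval 0.74 to 3.48) for prelamin A, which was called, and 1.22 (SE 0.51, interval -0.15 to 2.59) for progerin, which was not, though it was with a constant of 64 or an intensity trend. The controls were 0.99 apart, and without control 1 or control 2 the progerin change was 0.73 or 1.71 and the prelamin A change 1.62 or 2.61. The direct difference between prelamin A and progerin was 0.89 (interval -0.69 to 2.47). FTI changed EPHX1 by -0.59 (interval -2.17 to 0.99) in progerin cells and -0.88 (interval -2.46 to 0.70) in prelamin A cells. ZMPSTE24 changed it by -1.34 (interval -2.92 to 0.24), to 39.2% of the prelamin A signal. This change was not called, though it was with a constant of 64 or an intensity trend.

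AKR1C1, a hydroxysteroid dehydrogenase that inactivates progesterone, was above both controls on all 5 transduced arrays. Probe set 204151_x_at read 10078 and 6652 in the controls, 17507 with progerin, 14347 with progerin and FTI, 23005 with prelamin A, 12254 with prelamin A and FTI, and 23284 with prelamin A and ZMPSTE24. The arrays with FTI were the lowest of the 5, and prelamin A with and without ZMPSTE24 the highest.

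The AKR1C1 change was 1.09 (SE 0.40, interval 0.03 to 2.16) for progerin and 1.49 (SE 0.40, interval 0.42 to 2.56) for prelamin A. Without control 1 or control 2 the progerin change was 1.39 or 0.80, and its call was lost with a constant of 1, under median centring, without the filter on signal and on probe set 216594_x_at. FTI changed it by -0.29 (interval -1.52 to 0.95) in progerin cells and by -0.91 (interval -2.14 to 0.33) in prelamin A cells. ZMPSTE24 left a change of 0.02 (interval -1.22 to 1.25).

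The reading of AKR1C1 depends on probe specificity. Probe sets ending in _x_at hold probes that also match other sequences, and AKR1C1 and AKR1C2 are near-identical in sequence. The second AKR1C1 probe set, 216594_x_at, read 10158 and 5755 in the controls and 11845 to 22152 on the transduced arrays. The brightest AKR1C2 probe set, 211653_x_at, read 8638 and 5150 in the controls and 9361 to 21181 on the transduced arrays, and its log2 level followed that of AKR1C1 with a Pearson r of 0.970 over the 7 arrays. A probe set that the annotation gives to both genes, 1555854_at, left out of the test, read 360 and 126 in the controls and 567 to 1505 on the transduced arrays. The signals of AKR1C1 and AKR1C2 therefore cannot be told apart on these probe sets. Probe set 217626_at, which is not of the _x_at kind, read 58.0 and 87.7 in the controls and 296, 169, 208, 136 and 274 on the transduced arrays, and 1555856_s_at and 1555855_at stayed between 2.70 and 56.7.

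AKR1C3, which makes testosterone and reduces prostaglandin D2, was the one gene of the 6 tested whose transduced arrays overlapped the controls. Its probe set read 12710 and 4540 in the controls, 12167 with progerin, 10690 with progerin and FTI, 13174 with prelamin A, 9610 with prelamin A and FTI, and 17809 with prelamin A and ZMPSTE24. The controls alone were 1.48 apart on the log2 scale, more than any gap between neighbouring arrays in the order. Its change was 0.68 (SE 0.68, interval -1.14 to 2.50) for progerin and 0.79 (SE 0.68, interval -1.03 to 2.61) for prelamin A. Without control 1 these were 1.42 and 1.53, and without control 2 they were -0.06 and 0.05, so the progerin change turned its sign. It was not called with FTI or ZMPSTE24, and its interval spanned 0 in all 5 comparisons.

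**Figure D3:**
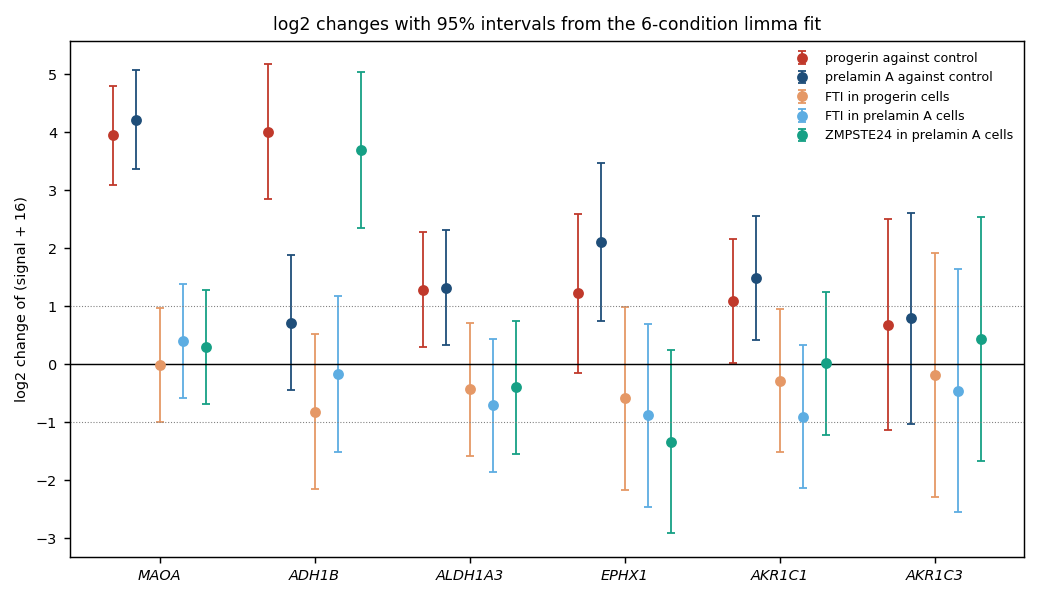
Change in log2(signal + 16) for the 6 genes tested, as points with 95% intervals from the limma fit, in 5 comparisons: progerin and prelamin A against control, FTI in each line, and ZMPSTE24 in prelamin A cells. Dotted lines mark a 2-fold change in each direction; MAOA is near 4 against control in both lines (3.95 and 4.22), ADH1B is near 4 for progerin and for ZMPSTE24 added to prelamin A (4.01 and 3.70) but 0.71 for prelamin A, and every FTI interval spans 0.

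Counted over the 6 genes tested, 4 were called higher with progerin (MAOA, ADH1B, ALDH1A3 and AKR1C1), where 3.76% of all genes were called higher and 2.04% lower. With prelamin A 4 were called higher (MAOA, ALDH1A3, EPHX1 and AKR1C1), where 6.29% of all genes were called higher and 4.02% lower. Both comparisons share their controls. No gene of the 6 was called with FTI in either line by limma, and none had an unadjusted p under 0.05 there. Of all genes 0.503% were called higher and 0.951% lower with FTI in progerin cells, and FTI called 1.19% higher and 1.62% lower in prelamin A cells. With ZMPSTE24 1 gene, ADH1B, was called higher, against 2.18% of all genes called higher and 2.85% lower. No gene of the 6 was called lower in any of the 5 comparisons. Since these arrays were in view when the genes were chosen, nothing is read from the counts.

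All 5 transduced arrays were above both controls for 5 of the 6 genes tested, all but AKR1C3, and below both for none. Over all genes tested this held for 11.9% above and 12.3% below. The median change of the 6 was 1.25 with progerin and 1.40 with prelamin A, where the median of all genes was 0.01 and -0.02. With FTI it was -0.36 and -0.58 for progerin and prelamin A cells, with 6 and 5 of the 6 negative, and with ZMPSTE24 0.16, where the medians of all genes were -0.01, -0.01 and -0.02. Each treatment comparison shares its untreated lamin array with the comparison of that line against control.

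The genes with the profile most like each of the 6 over the 7 arrays were named by Pearson r of the log2 level, as a description of 7 points that include 1 cluster of controls. For MAOA they were RCBTB1 (0.995), ENPP5 (0.994) and EPB41L5 (0.994), with 150 genes above 0.95. ENPP5 resembled MAOA also in size, with signals of 33.7 and 22.7 in the controls and 542 to 749 on the transduced arrays. For ADH1B they were MTSS1 (0.997), LINC00968 (0.983) and LRATD1 (0.981), with 21 genes above 0.95. MTSS1, which encodes a membrane-bending actin regulator, read 549 and 408 in the controls, 1746 and 1328 with progerin without and with FTI, 645 and 611 with prelamin A without and with FTI, and 1859 with ZMPSTE24. LINC00968, a long non-coding RNA, read 817 and 584 in the controls, 2784 and 2319, 622 and 691, and 4033 on those arrays.

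For ALDH1A3 the nearest were ABCA11P (0.984), NRP1 (0.983) and ZNRF3 (0.973). For EPHX1 they were COL18A1 (0.976), CASTOR2 (0.975) and the forkhead factor gene FOXQ1 (0.971), which read 205 and 449 in the controls, 1401 with progerin, 773 with progerin and FTI, 7676 with prelamin A, 1225 with prelamin A and FTI, and 969 with prelamin A and ZMPSTE24. For AKR1C1 the nearest were LINC00674 (0.982), PTPRR (0.977) and SPATA13 (0.977), and for AKR1C3 RAB9A (0.982), CELF2 (0.974) and RNPC3 (0.971). Among the 6 genes themselves r ran from 0.12 for EPHX1 with ADH1B to 0.86 for EPHX1 with ALDH1A3.

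**Figure D4:**
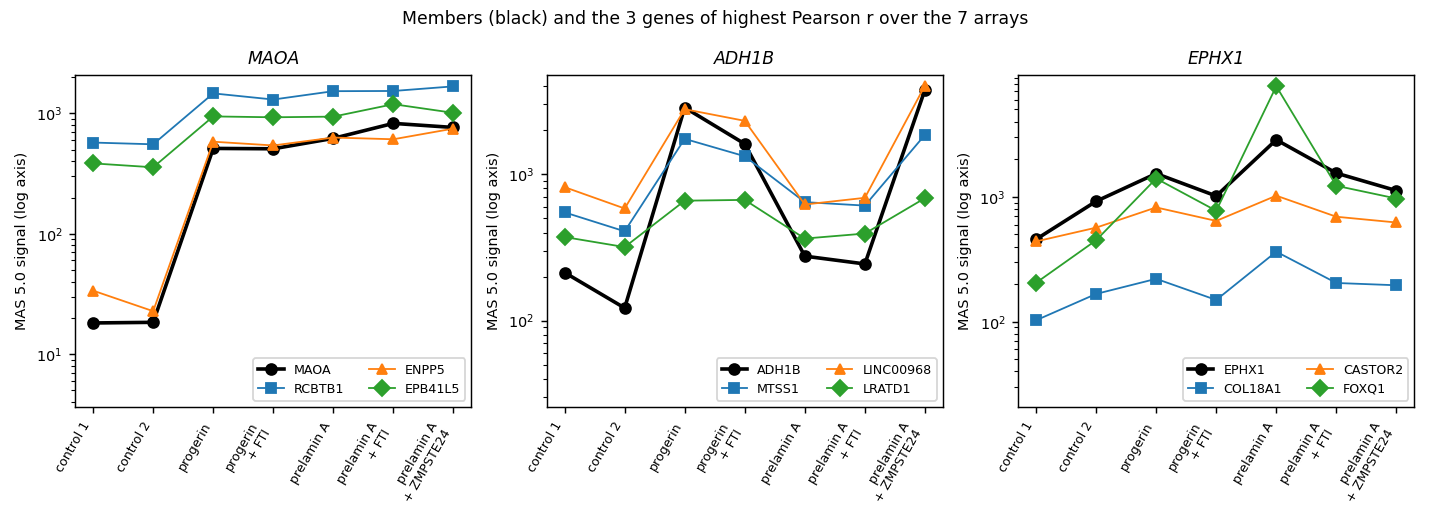
MAS 5.0 signal on a log axis across the 7 arrays for MAOA, ADH1B and EPHX1 (black) and the 3 genes of highest Pearson r to each. The MAOA panel steps up from the 2 controls to all 5 transduced arrays, the ADH1B panel is high with progerin, progerin with FTI and prelamin A with ZMPSTE24 only, and the EPHX1 panel peaks at prelamin A, where FOXQ1 reads 7676.

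Other genes of the same chemistry were read from 7 lists of 118 genes, of which 79 were tested. With progerin 4 were called higher and 4 lower (10.1%, against 5.80% of all genes), and with prelamin A 9 higher and 2 lower (13.9%, against 10.3%). With FTI in progerin cells none was called by limma and none had an unadjusted p under 0.05. With FTI in prelamin A cells 3 were called lower (3.80%, against 1.62% of all genes called lower) and none higher (against 1.19%). With ZMPSTE24 2 were called higher and 2 lower (5.06%, against 5.04% of all genes). The median change of the 79 was 0.06 with progerin and 0.03 with prelamin A.

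Among 6 other amine enzymes tested, 16.7% were called with prelamin A, against 10.3% of all genes. SAT1, the acetylase that starts polyamine breakdown, was the one called. It read 4444 and 5629 in the controls, 5198 and 4729 with progerin without and with FTI, 17328 with prelamin A, 8182 with prelamin A and FTI, and 6850 with prelamin A and ZMPSTE24, a change of 1.79 (SE 0.35) for prelamin A against control. It was highest on the array of prelamin A alone, and it was called lower there with FTI (-1.08) and with ZMPSTE24 (-1.34). Of 8 other alcohol and retinol enzymes none was called in either line, and none had an unadjusted p under 0.05 there by limma. RDH5, a retinol dehydrogenase named after its value was seen, was called higher with ZMPSTE24 (1.91). In that comparison 12.5% of the list was called, against 5.04% of all genes.

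Of 14 other aldehyde dehydrogenases, 1 was called higher and 2 lower with progerin, and 1 higher and 1 lower with prelamin A. That was 21.4% called with progerin, against 5.80% of all genes, and 14.3% with prelamin A, against 10.3%. ALDH3A2, which oxidises fatty aldehydes, read 1156 and 1377 in the controls and 1585 to 3299 on the transduced arrays, with changes of 1.29 for progerin and 1.32 for prelamin A (SE 0.34 each). ALDH1L2, the mitochondrial folate enzyme, read 1695 and 3650 in the controls and 407 to 1020 on the transduced arrays, with changes of -1.66 and -1.71 (SE 0.55 each). ALDH18A1, which makes the precursor of proline, changed by -1.09 with progerin, which was called, and by -0.99 with prelamin A, which was not (SE 0.36 each).

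Of 8 other aldo-keto and carbonyl reductases, AKR1C2 alone was called in either line. That was 12.5% of the list in each, against 5.80% of all genes with progerin and 10.3% with prelamin A. Its change was 1.39 for progerin and 1.31 for prelamin A (SE 0.44 each), with the limit on probe specificity given above. Of 24 other genes of epoxide, cytochrome P450 and glutathione chemistry, EPHX2, the soluble epoxide hydrolase, was called higher in both lines. It read 11.1 and 47.1 in the controls and 302, 193, 132.7, 159 and 166 on the transduced arrays, with changes of 2.95 and 1.85 (SE 0.59 each). CYP3A5 was called lower with progerin at -1.90 (SE 0.52), from signals of 43.6 and 104 in the controls and 6.71 with progerin, and changed by -0.42 with prelamin A. Of these 24 genes 8.33% were called with progerin and 4.17% with prelamin A, against 5.80% and 10.3% of all genes.

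Downstream of the ALDH1A enzymes, 7 genes of retinoid binding, breakdown and response were tested. Of these 28.6% were called with progerin and 42.9% with prelamin A, against 5.80% and 10.3% of all genes. CYP26B1, which degrades retinoic acid, read 19.6 and 146 in the controls and 239 to 493 on the transduced arrays, with changes of 2.75 for prelamin A, which was called, and 2.50 for progerin, which was not (SE 0.95 each). RXRA, the retinoid X receptor alpha, was called higher in both lines, at 1.02 and 1.32 (SE 0.35 each). CRABP2, which carries retinoic acid to its receptor, was called lower in both, at -1.30 for progerin and -2.32 for prelamin A (SE 0.33 each), from 8489 and 7306 in the controls to 3187 and 1563. With prelamin A CRABP2 was called lower still with FTI, at 673, and higher with ZMPSTE24, at 3629.

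Of 12 NRF2 target genes tested, which take in the oxidative stress enzymes, none was called with progerin (0 with an unadjusted p under 0.05 by limma). With prelamin A 3 were called higher (25%, against 6.29% of all genes called higher) and none lower (against 4.02%). HMOX1, heme oxygenase 1, read 773 and 1716 in the controls, 1996 on the progerin array and 8502 with prelamin A, a change of 2.87 (SE 0.56) for prelamin A. It was called lower with FTI, at 2090, and with ZMPSTE24, at 895. TXNRD1, thioredoxin reductase 1, changed by 1.93 and ME1, malic enzyme 1, by 1.32 with prelamin A. HMOX1, TXNRD1, ME1, SAT1, CYP26B1, RXRA and EPHX1 each read highest on the array of prelamin A alone, while MAOA and ADH1B read highest on other arrays. The EPHX1 gap to its next array was 0.88, above the SE of a difference between 2 single arrays (0.59) but under its control gap (0.99). ALDH1A3 read 2340 with prelamin A alone and 2280 with progerin. AKR1C1 read 23005 with prelamin A alone and 23284 with prelamin A and ZMPSTE24. These log2 gaps of 0.04 and 0.02 were under the SE of a difference between 2 single arrays (0.43 and 0.46). The gaps below the highest MAOA and ADH1B arrays, 0.11 and 0.40, were also under that SE (0.37 and 0.50). No clear highest array was therefore seen for ALDH1A3, AKR1C1, MAOA or ADH1B.

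**Figure D5:**
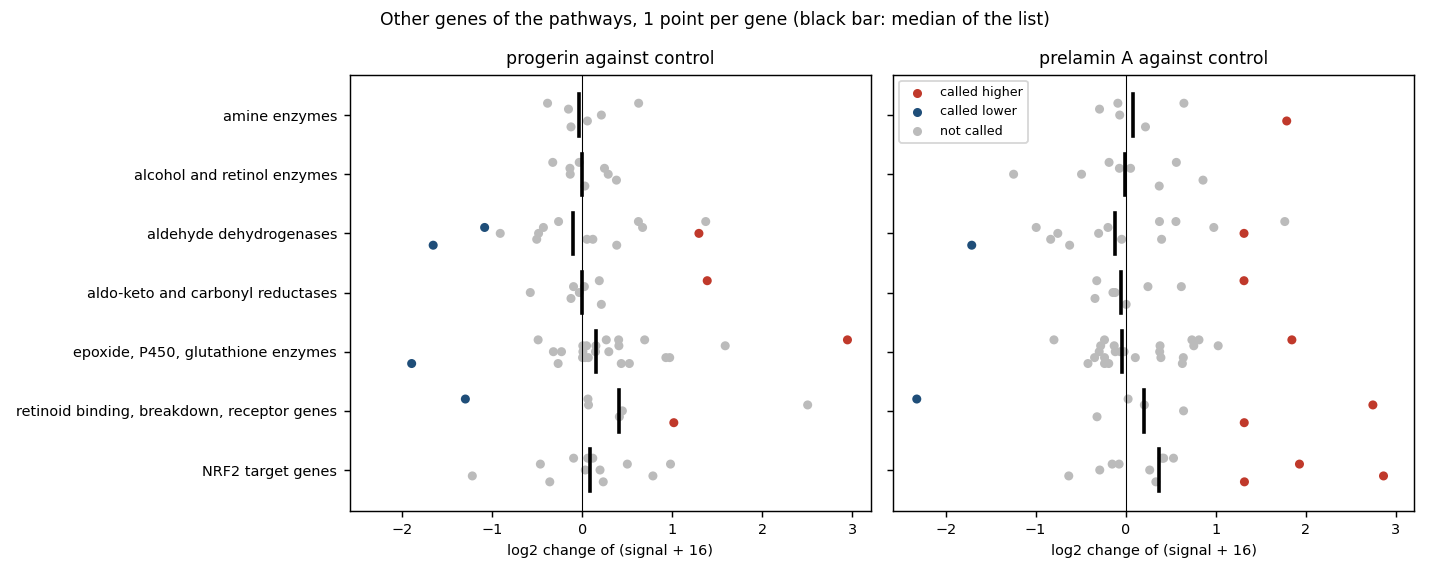
Change in log2(signal + 16) for the genes tested in each of the 7 lists, 1 point per gene, with progerin against control on the left and prelamin A against control on the right. Red points were called higher, blue lower and grey not called, and black bars are list medians; of 79 genes 4 are red and 4 blue with progerin, and 9 red and 2 blue with prelamin A.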

How the data were processed

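Total RNA of fibroblasts was hybridised to 7 HG-U133 Plus 2.0 arrays. The authors deposited MAS 5.0 signal intensity per probe set on a linear scale, background-corrected, summarised and scaled in that software. The 2% trimmed mean is 500.07 on every array, about double the scaling target in the study's methods, so the signal minimum of 100 and the constant of 16 refer to the deposited scale. The number of arrays limits the precision. Every deposited column was mapped to a sample. Detection calls and probe-level intensities did not enter.

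Gene symbols came from the platform annotation, updated by gene ID through the RefSeq table of GRCh38.p14 (41037 of 41091 single-gene probe sets matched). Single-gene probe sets that reached a signal of 100 on any array entered the fit, 1 per gene, the brightest by mean, which gave 12726 genes. All 20 probe sets of the 8 genes were read, and 1 shared with AKR1C2 was left out. Values were fitted as log2(signal + 16) with limma 3.58.1 in R 4.3.3, with 6 conditions, 1 residual and 3.50 prior degrees of freedom. Adjusted p-values were from Benjamini-Hochberg over all genes. The S-score test of the study needs probe-level values and was not repeated. Promoter windows came from RefSeq, and pairs were aligned with Biopython 1.88.

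The members, the gene lists and the alternatives were chosen with earlier results of these data known. Genes were named by rule: the 8 genes, called list genes (at most 4 a list, by size of change in either line), and the 3 genes of highest Pearson r to each gene tested. Alternatives were constants of 1 and 64, quantile normalization, median centring, no filter, a mean signal of at least 100, an intensity trend, other thresholds, every other probe set, and leaving out each control.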

Additional observations from a re-analysis of the deposited data

Results flagged for a closer look

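ADH1B differed between the lamin lines. Prelamin A minus progerin was -3.30 on the log2 scale (SE 0.50, adjusted p = 0.618 from limma), from 276 with prelamin A and 2857 with progerin, and its unadjusted p of 0.00186 passed the threshold of 0.05. The adjusted p ranged from 0.101 to 0.714 over the settings tried. Because the gene was chosen with these arrays in view and each line is 1 array, the difference is given as a value only. The other 5 genes tested did not pass that threshold in the same contrast, and no gene of the 6 passed it for the difference in FTI effect between lines.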

How the results depend on the processing

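Members called, 4 with progerin and 4 with prelamin A, became 2 and 1 at an unadjusted p under 0.01 and 0 and 0 at an adjusted p under 0.05. Over the other settings they ranged from 3 to 5 and from 4 to 5, with EPHX1 gained for progerin with a constant of 64 or an intensity trend and AKR1C1 lost with a constant of 1 or median centring. The 1 called with ZMPSTE24 became 0 at an adjusted p under 0.05, and 2 with a constant of 64 or an intensity trend, where EPHX1 was added as lower. FTI in progerin cells gained 1, ALDH1A1, with no filter, where the 4 for progerin also lost AKR1C1 and gained ALDH1A1. Counts for FTI in prelamin A cells stayed at 0, and 5 genes had all transduced arrays above both controls under both scalings. Single values were tallied under the constants of 1 and 64, both scalings and both other signal filters, without the intensity trend. Of these values 173 kept their direction and call, 2 turned direction, 3 lost a call and 2 gained a call. Under other probe sets 34 kept both, 7 turned direction, 7 lost a call and 2 gained a call. Those 2 gains were AKR1C1 on the dim 1555855_at, at -1.93 for FTI in progerin cells and 1.51 for ZMPSTE24. MAOA with FTI in progerin cells turned from -0.01 to 0.0345 with quantile normalization, 0.0113 with median centring and 0.59 on 204389_at. ADH1B with FTI in prelamin A cells was 0.34 on 209613_s_at and 0.12 on 209614_at, and with ZMPSTE24 -0.38 on the dim 243544_at. On its dim probe sets AKR1C1 was -1.34 for prelamin A and 0.0742 for FTI in prelamin A cells (1555855_at), and 0.26 for FTI in progerin cells (1555856_s_at); the cause was not tested. Leaving out each control, as values with no test, kept every direction but that of AKR1C3 with progerin, which was 1.42 without control 1 and -0.06 without control 2. Over all genes, the share of calls that were higher moved with quantile normalization from 34.6% to 50.5% for FTI in progerin cells. Calls there numbered 185 and ranged from 53 to 600 over other settings, those for FTI in prelamin A cells 358 and from 186 to 913, and with no filter the 738 for progerin and 641 for ZMPSTE24 became 1238 and 1176. No paired analysis was possible because the groups compared share fewer than 2 replicate numbers, and an FTI effect with line as a block was not run.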
